A study of Homo sapiens with 20 samples.

Results

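The genes described here are small nucleolar RNA (snoRNA) host genes: every gene whose symbol is SNHG followed by a number, together with GAS5, ZFAS1, DANCR and EPB41L4A-AS1. All 32 are annotated as long noncoding RNAs. All 32 were among the 28278 genes listed for the FUBP1 immunoprecipitation, and 15 of them had at least 1 skipped exon event in the junction read tables. These tables listed 53 of 19792 events in 12 of 7243 genes for FUBP1 depletion, 88 of 32990 events in 15 of 9094 genes for U3 depletion, and 28 of 7065 events in 11 of 4019 genes for FBL depletion. The host gene events came to 100 different events on 70 exons, and those of 1 gene often share a junction. DANCR and EPB41L4A-AS1 had none.

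A snoRNA host gene is transcribed as a precursor whose introns carry snoRNAs. After splicing, the excised intron is trimmed down to the snoRNA, and the joined exons leave as a separate RNA, which in many hosts codes for no protein and is short-lived. C/D box snoRNAs guide the methyltransferase FBL (fibrillarin) to ribosomal and other RNAs, while H/ACA box snoRNAs guide pseudouridine formation; U3 is a C/D box snoRNA that acts in the processing of the ribosomal RNA precursor. Of the 32 genes, 6 have no snoRNA named as C/D or H/ACA box annotated inside them: SNHG10, SNHG20, SNHG21, SNHG22, SNHG27 and SNHG28. They are called host genes here by their symbols alone. FUBP1 is a nuclear RNA-binding protein with roles in transcription and splicing.

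All 20 libraries of the study came from HepG2, a human liver cancer cell line, and fell into 8 groups. Polyadenylated RNA was sequenced from 3 libraries each of siCtrl2 (control siRNA) and siFUBP1 (siRNA against FUBP1), both harvested at 48 h, and from 3 libraries each of GFP ASO (control antisense oligonucleotide) and U3 ASO (antisense oligonucleotide against U3), both harvested at 72 h. Input RNA and RNA pulled down with FUBP1 (RIP) were sequenced from cells given control siRNA (siCtrl) or siRNA against FBL (siFBL) for 48 h, with 2 libraries per group. The junction table for FBL depletion uses the 4 input libraries, which also enter the RIP values. The libraries are named below by their place in the list of reads, which carries no replicate number.

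Junction reads were summed per library over the listed events, so a shared junction counts once for each event that uses it. These sums ranged from 2693397 to 4474350 for FUBP1 depletion, from 11249641 to 13321799 for U3 depletion and from 910779 to 1142189 for FBL depletion. FUBP1 itself had a junction level (length-scaled reads of its skipped exon events per 1000000 such reads of all events) of 74.1, 93.5 and 83.8 in siCtrl2 and of 13.8, 16.8 and 6.83 in siFUBP1. It was also lower in U3 ASO (60.3, 58.1 and 49.8) than in GFP ASO (87.6, 81.1 and 78.5). FBL had no skipped exon event, and its mean count in the RIP table, which is scaled separately in each condition, was 1030 in siCtrl and 164 in siFBL. Of the 18 cell type markers, the 8 of hepatocytes had mean counts of 3320 to 1320000 in the RIP table. The 10 of leukocytes, endothelium and fibroblasts had mean counts of 3.36 to 631 apart from LYZ (83300 and 91700).

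The exons that carry the splicing results lie in SNHG29 and ZFAS1, and their sequences are given first (hg38, plus strand, annotation from GENCODE). SNHG29 lies at chr17:16438767-16480249 and holds SNORD49B, SNORD49A and SNORD65. An alternative exon of it ends at a single donor, base 16439703, and begins at 1 of 3 acceptors, which gives forms of 176 bases (chr17:16439528-16439703), 123 bases (chr17:16439581-16439703) and 44 bases (chr17:16439660-16439703). They stand in 9, 7 and 5 annotated transcripts and not in the canonical one. The first line runs from the upstream donor to the end of the exon, with the annotated SNORD49B in capitals, and shows where that snoRNA lies against the exon. The next lines give the acceptors, each with 30 intron bases and 10 exon bases and the acceptor AG in capitals.
SNHG29 intron and exon, chr17:16439415-16439703: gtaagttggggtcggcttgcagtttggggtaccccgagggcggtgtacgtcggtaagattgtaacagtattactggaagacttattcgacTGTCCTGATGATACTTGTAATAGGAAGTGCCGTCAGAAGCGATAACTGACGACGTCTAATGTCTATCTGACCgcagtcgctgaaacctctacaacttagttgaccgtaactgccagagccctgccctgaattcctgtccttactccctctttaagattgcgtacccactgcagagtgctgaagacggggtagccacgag
Acceptor of the 176-base form, chr17:16439498-16439537: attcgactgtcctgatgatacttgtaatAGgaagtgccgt
Acceptor of the 123-base form, chr17:16439551-16439590: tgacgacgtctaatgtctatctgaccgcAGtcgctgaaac
Acceptor of the 44-base form, chr17:16439630-16439669: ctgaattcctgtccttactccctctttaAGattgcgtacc

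The acceptor of the 176-base form lies inside SNORD49B: the first base of that form is base 24 of the snoRNA. The 123-base form begins 4 bases after the end of SNORD49B, so that the whole snoRNA lies in the intron of this form and of the 44-base form. SNORD49A lies in the intron that follows the exon. The pair are close copies, shown with the C box (TGATGA) and the D box (CTGA) in capitals, and share a run of 35 bases (chr17:16439522-16439556 and chr17:16440053-16440087). The 176-base form starts at base 7 of that run, so reads from the copies are uncertain there.
SNORD49B, chr17:16439505-16439576: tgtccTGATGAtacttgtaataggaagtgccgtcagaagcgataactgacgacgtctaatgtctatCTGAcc
SNORD49A, chr17:16440036-16440106: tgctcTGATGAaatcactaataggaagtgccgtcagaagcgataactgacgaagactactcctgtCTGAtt

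**Figure D1:**
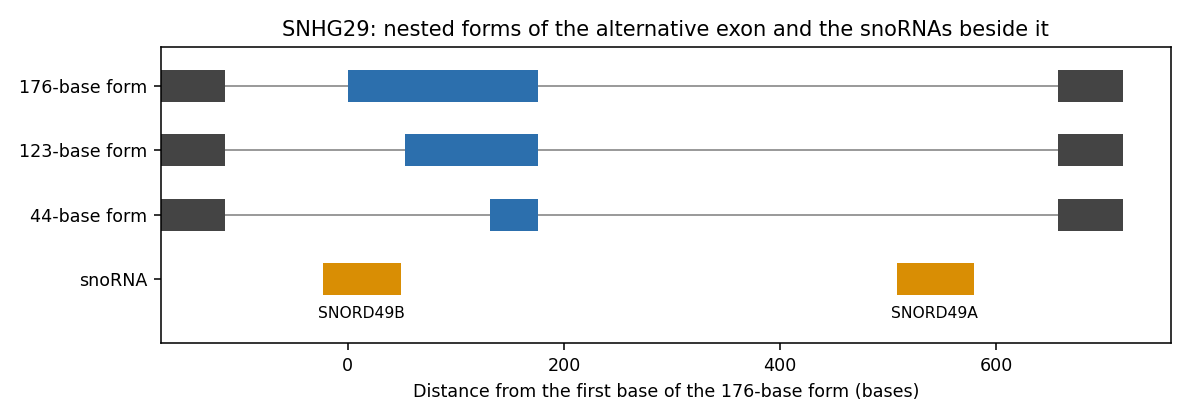
Position of the 3 forms of the SNHG29 alternative exon (176, 123 and 44 bases) against the annotated snoRNAs, as distance in bases from the first base of the 176-base form along the plus strand; dark boxes are the flanking exons. The forms share their right end, and the left end of the longest lies inside SNORD49B.

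ZFAS1 (chr20:49278178-49299600) holds SNORD12C, SNORD12B and SNORD12. Exon 3 (chr20:49280485-49280570, 86 bases) and exon 4 (chr20:49280903-49280964, 62 bases) lie on the 2 sides of the intron with SNORD12. They are printed with 20 bases of the intron before and 10 after, the exon in capitals; SNORD12 is printed with its C and D boxes in capitals.
ZFAS1 exon 3, chr20:49280465-49280580: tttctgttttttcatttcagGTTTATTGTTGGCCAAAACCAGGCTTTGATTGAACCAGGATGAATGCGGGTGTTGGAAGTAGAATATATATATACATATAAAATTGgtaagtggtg
SNORD12, chr20:49280683-49280772: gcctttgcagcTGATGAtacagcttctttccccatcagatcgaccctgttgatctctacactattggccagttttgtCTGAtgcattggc
ZFAS1 exon 4, chr20:49280883-49280974: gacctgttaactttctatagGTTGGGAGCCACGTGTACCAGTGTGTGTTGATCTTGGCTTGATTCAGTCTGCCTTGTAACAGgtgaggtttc

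After U3 depletion, 5 host gene events had higher inclusion: the 3 forms of the 1 SNHG29 exon and exons 3 and 4 of ZFAS1. An inclusion level is the share, from 0 to 1, of the length-scaled junction reads of an event that include the exon. In GFP ASO the 123-base form of SNHG29 had inclusion levels of 0.392, 0.432 and 0.386, and in U3 ASO of 0.743, 0.705 and 0.674. The 2 groups lay far apart against the spread within each (SD 0.0248 and 0.0343, n = 3 each). The mean rose by 0.304 (adjusted p = 2.53e-16, from a dispersion drawn to a trend over all events and not from this spread alone).

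The 176-base form had levels of 0.504, 0.504 and 0.478 in GFP ASO and of 0.761, 0.724 and 0.681 in U3 ASO (difference 0.227, adjusted p = 1.1e-09). The 44-base form had 0.384, 0.397 and 0.347 against 0.654, 0.608 and 0.572 (difference 0.235, adjusted p = 2.22e-06). In both, every U3 ASO library lay above every GFP ASO library. The 3 forms share the donor and the junction that skips the exon, so they are not independent results.

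The reads behind these levels show which junctions moved. The junction that skips the SNHG29 exon had 480, 521 and 550 reads in GFP ASO and 184, 181 and 287 in U3 ASO. Reads of the 123-base form went from 565, 722 and 631 to 970, 791 and 1085. Reads of the 176-base form (975, 1057 and 1009 against 1174, 950 and 1223) and of the 44-base form (387, 444 and 379 against 450, 363 and 496) overlapped between the groups.

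Because the forms share the downstream junction, their differences in reads describe how the acceptors were used, provided that shared reads were counted alike in each form, which the sources used here do not give. The 176-base form exceeded the 123-base form by 410, 335 and 378 reads in GFP ASO and by 204, 159 and 138 in U3 ASO, a mean of 374.3 ± 37.6 against 167.0 ± 33.7 (SD, n = 3). The 123-base form exceeded the 44-base form by 178, 278 and 252 reads in GFP ASO and by 520, 428 and 589 in U3 ASO, a mean of 236.0 ± 51.9 against 512.3 ± 80.8. Each difference sets an acceptor against the next and does not give the reads of either alone. The lead of the acceptor inside SNORD49B over the acceptor just after it was smaller in all 3 U3 ASO libraries. The lead of the latter over the acceptor of the 44-base form was larger in all 3. These differences were not tested, and they do not show that the acceptor inside SNORD49B was used less.

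ZFAS1 exon 4 had inclusion levels of 0.566, 0.445 and 0.421 in GFP ASO and of 0.603, 0.660 and 0.577 in U3 ASO. The groups did not overlap, the gap between them was small (0.566 against 0.577), and the mean rose by 0.136 (adjusted p = 0.0645). Unlike in SNHG29, the reads that skip exon 4 did not fall: they were 224, 344 and 306 in GFP ASO and 418, 383 and 586 in U3 ASO. Exon 3 had 0.748, 0.767 and 0.911 against 0.931, 0.883 and 0.917, a rise of 0.102 (adjusted p = 0.0795), with the third GFP ASO library inside the range of U3 ASO. The junction from exon 3 to the last exon is counted as skipping in the exon 4 event and as inclusion in the exon 3 event, so the 2 events are linked.

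**Figure D2:**
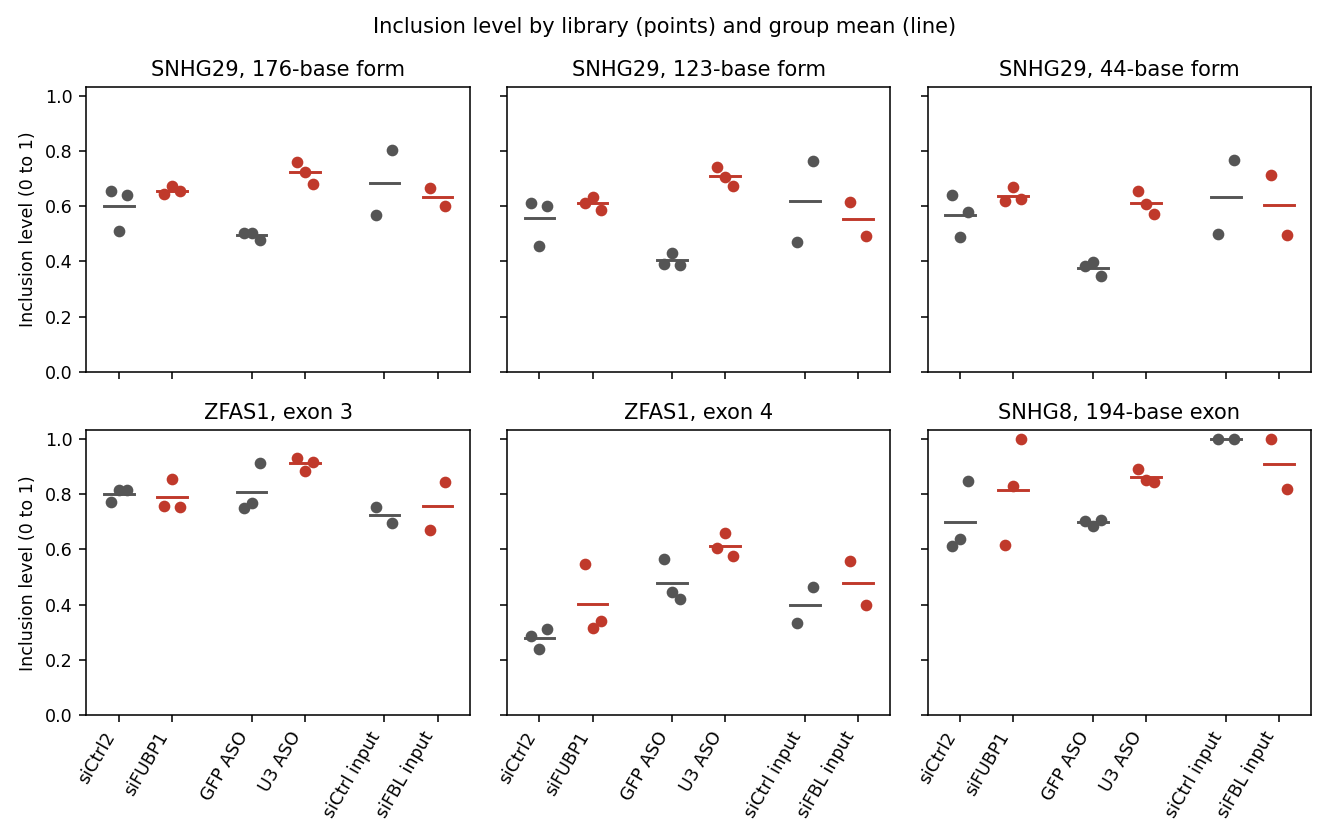
Inclusion level (0 to 1) per library in the 3 comparisons for the 3 forms of the SNHG29 exon, ZFAS1 exons 3 and 4 and the SNHG8 194-base exon, with a line at each group mean. The U3 ASO libraries lie above all GFP ASO libraries for the SNHG29 forms, ZFAS1 exon 4 and SNHG8, and the FBL depletion libraries scatter widely.

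These 5 calls stood among 80 host gene events tested in 13 genes, and in all 5 inclusion was higher. They lie in SNHG29 and ZFAS1 alone and are linked within each gene, so they are not 5 separate results. Over all 30109 events tested 56 were called, which is 0.186%, and 0.103% were called with higher inclusion. Groups did not overlap for 8 of the 80 host gene events, against 6.03% of all events. The 5 calls were lost when limma was run on the log2 odds of inclusion, where no event of the table was called; the adjusted p of the SNHG29 forms was then 0.773 to 0.863. The SNHG29 forms stayed called without any 1 library, whereas ZFAS1 exon 3 was lost without GFP ASO library 1 or 2 or without any 1 U3 ASO library (difference 0.07119 to 0.1154), and ZFAS1 exon 4 without GFP ASO library 2 or 3 or U3 ASO library 1 or 2 (0.1083 to 0.1415).

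The next host gene event by p was not called. The 194-base exon of SNHG8 (chr4:118278944-118279137), host of the H/ACA box snoRNA SNORA24, had inclusion levels of 0.704, 0.684 and 0.707 in GFP ASO and of 0.891, 0.851 and 0.843 in U3 ASO, a difference of 0.163 on a mean of 373.2 reads per library (adjusted p = 0.868). The groups did not overlap, and the difference did not pass the test. A pair of neighbouring exons of GAS5, the host of 10 C/D box snoRNAs and 1 H/ACA box snoRNA, followed. Exon chr1:173864675-173864704 was at 0.710 in GFP ASO library 2 and at 1 in the other 5 libraries, and exon chr1:173864484-173864506, joined to the same downstream exon, was at 0.507 in that library and at 1 elsewhere (adjusted p = 0.868 for both). Both differences came from that 1 control library. The other 72 events tested had adjusted p of 0.868 or more.

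Across the 80 events, inclusion was higher in U3 ASO in 46 and lower in 34, with a median difference of 0.00293 against -0.003552 over all events. Most host gene exons were included nearly fully, with a median level in GFP ASO of 0.975 against 0.989 over all events. SNHG14, the long imprinted host of the SNORD116 and SNORD115 clusters, supplied 34 of the 80 events, none called, including events before the start of the annotated gene in exons of SNRPN and SNURF. A snoRNA is annotated in the exon or a flanking intron of 71 of the 80 events, in 13 genes, and the 5 called events are among these; the other 9 events are all in SNHG14. Since all events tested outside SNHG14 have a snoRNA beside them, events with and without one could not be compared across genes.

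The called exons differ in the bases before their acceptors. Thymine made up 34%, 22% and 30% of the 50 bases before the 176-, 123- and 44-base forms of SNHG29, and 42% and 46% before ZFAS1 exons 3 and 4. The median over the 63 host gene exons listed for U3 depletion, tested or not, was 36%, and over all 27804 exons listed there it was 38%. The SNHG29 acceptors were thus below the median and those of ZFAS1 above it.

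**Figure D3:**
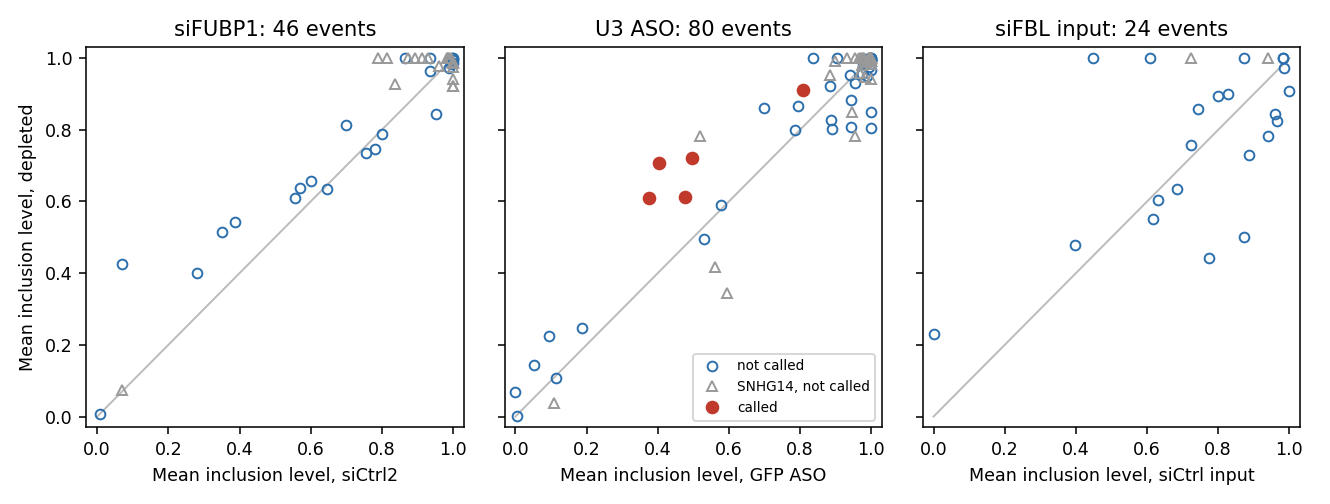
Mean inclusion level (0 to 1) of every tested host gene event in the depleted group against its control group, for the 3 comparisons (46, 80 and 24 events). Red points are events called at an adjusted p under 0.1, grey triangles are events of SNHG14 and the line marks equal levels; the 5 red points, all above the line, are the SNHG29 and ZFAS1 events of U3 depletion.

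FUBP1 depletion changed no host gene exon past the test. None of 46 events in 11 genes was called, against 25 of all 16213 events (0.154%); 1 of the 46 had an unadjusted p under 0.05, against 578 of all events, and limma on the log2 odds called none either. That 1 event was ZFAS1 exon 4, at 0.287, 0.240 and 0.311 in siCtrl2 and 0.545, 0.316 and 0.340 in siFUBP1. The groups did not overlap, as for 5.05% of all events, but the first siFUBP1 library carried most of the difference of 0.121 (adjusted p = 0.836). ZFAS1 exon 3 had 0.771, 0.815 and 0.816 against 0.758, 0.853 and 0.753.

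The SNHG29 exon that moved with U3 depletion overlapped between siCtrl2 and siFUBP1. The 44-base form had inclusion levels of 0.640, 0.487 and 0.579 in siCtrl2 and of 0.619, 0.668 and 0.627 in siFUBP1 (adjusted p = 0.836). The 176-base form had 0.653, 0.509 and 0.641 against 0.643, 0.672 and 0.654, and the 123-base form 0.612, 0.456 and 0.599 against 0.610, 0.634 and 0.586. In all 3 forms the second siCtrl2 library was the lowest of the 6. A further SNHG29 exon, chr17:16441074-16441130, had 0.980, 0.907 and 0.922 against 0.969, 0.961 and 0.965.

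Of the other host gene events ranked highest by p in this comparison, 4 stood apart in a single control library. GAS5 exon chr1:173865229-173865282 was at 0.809 in siCtrl2 library 2 and at 1 in the other 5, and GAS5 exon chr1:173864675-173864704 at 0.593 in siCtrl2 library 3 and at 1 in the other 5. SNHG14 exon chr15:25061306-25061413 was at 0.367 in siCtrl2 library 2 and chr15:25089614-25089866 at 0.444 in siCtrl2 library 1, both at 1 elsewhere. An exon of SNHG17, host of the SNORA71 family of H/ACA box snoRNAs, chr20:38427680-38427766, had 0.0339, 0.174 and 0 against 0, 0.621 and 0.654, with 2 siFUBP1 libraries above the rest, on a mean of 13.5 reads per library. All had an adjusted p of 0.836. The SNHG8 194-base exon had 0.611, 0.638 and 0.846 against 0.614, 0.829 and 1.

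FBL depletion had 24 host gene events in 11 genes tested and none called; over all 5208 events 0 were called as well (0%). At an unadjusted p under 0.05 there were 0 host gene events and 76 events in all, and limma on the log2 odds also called 0. The comparison had 2 libraries a group and a median of 31.5 reads per host gene event. The lowest p belonged to SNHG16, which hosts the SNORD1 snoRNAs: its exon chr17:76558945-76559043 had inclusion levels of 0.715 and 0.831 in siCtrl input and of 0.226 and 0.655 in siFBL input, a difference of -0.332 (adjusted p = 0.897). The 2 siFBL libraries differed from each other by more than the groups did. The same exon had 0.918, 0.750 and 0.691 in GFP ASO against 0.857, 0.654 and 0.887 in U3 ASO, and 0.860, 0.775 and 0.633 in siCtrl2 against 0.880, 0.687 and 0.638 in siFUBP1.

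The remaining events named by p after FBL depletion had 10.75 to 34.75 reads per library. GAS5 exon chr1:173864484-173864506, joined to its next exon, had 0.744 and 1 in siCtrl input and 1 in both siFBL libraries. SNHG17 exon chr20:38422092-38422241 had 0 and 0.895 against 1 and 1, SNHG17 exon chr20:38425935-38426048 had no reads and 0 against 0.096 and 0.362, and SNHG6 exon chr8:66922324-66922385 had 0.745 and 1 against 1 and 0, a direction that turned without the second siFBL library (difference 0.1274). Libraries of 1 group lay as far apart as they can in SNHG6.

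The exons called after U3 depletion were also listed here. The 123-base form of SNHG29 had 0.471 and 0.763 in siCtrl input against 0.614 and 0.491 in siFBL input, the 176-base form 0.566 and 0.802 against 0.667 and 0.602, and the 44-base form 0.499 and 0.765 against 0.714 and 0.496. ZFAS1 exon 4 had 0.333 and 0.462 against 0.558 and 0.397, exon 3 0.753 and 0.694 against 0.670 and 0.843, and the SNHG8 exon 1 and 1 against 1 and 0.818. The groups overlapped in the SNHG29 and ZFAS1 events. Groups did not overlap for 3 of the 24 host gene events, against 13.8% of all events; they were the SNHG16 exon and 2 overlapping forms of the SNHG17 exon at chr20:38422092-38422241.

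Events named in 1 comparison were also read in the others. SNHG29 exon chr17:16441074-16441130 stayed near full inclusion, with 0.948, 0.961 and 0.909 in GFP ASO against 0.945, 0.954 and 0.958 in U3 ASO, and 0.968 and 1 in siCtrl input against 0.956 and 0.989 in siFBL input. GAS5 exon chr1:173865229-173865282 had 0.99, 1 and 0.963 against 1, 1 and 0.992 with U3 ASO, and 1 and 0.930 against 0.647 and 1 with siFBL. GAS5 exon chr1:173864484-173864506, joined to its next exon, had 0.978, 1 and 1 against 0.979, 0.955 and 0.988 with U3 ASO. In none of these did the groups separate.

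The SNHG14, SNHG17 and SNHG6 exons behaved alike in this respect. SNHG14 exon chr15:25061306-25061413 had 0.943, 0.925 and 0.967 in GFP ASO against 0.721, 0.825 and 1 in U3 ASO, and chr15:25089614-25089866 had 1, 1 and 0.958 against 1, 1 and 0.968. SNHG17 exon chr20:38427680-38427766 had 0.0898, 0.00764 and 0.243 against 0.127, 0.139 and 0.0567, chr20:38422092-38422241 had 0.647, 0.429 and 0.656 against 0.648, 0.639 and 0.479, and chr20:38425935-38426048 had 0.175, 0.228 and 0.155 against 0.329, 0.248 and 0.162. SNHG6 exon chr8:66922324-66922385 had 0.952, 0.869 and 0.840 against 0.803, 0.814 and 0.868. The 2 groups overlapped in each, and none was called. A slightly longer form of the last SNHG17 exon, chr20:38425935-38426052, joined to the same flanking exons, had 0.122, 0.127 and 0.035 against 0.290, 0.216 and 0.165. Its groups did not overlap, and it was not called (adjusted p = 0.868).

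The amount of spliced host RNA was read from the same junctions as a junction level: the reads of all events of a gene, with inclusion reads scaled to the length of the skipping form, per 1000000 such scaled reads of all genes. A level depends on how many events are listed for a gene, so levels are compared between libraries and not between genes. In bulk RNA a lower level can come from less RNA per cell or from fewer cells that hold it, which cannot be told apart. U3 depletion changed 9 of the 13 host genes tested, 6 upward and 3 downward. ZFAS1 had levels of 146, 174 and 129 in GFP ASO and of 270, 269 and 297 in U3 ASO, a log2 fold change of 0.90 ± 0.10 (SE). GAS5 had 144, 184 and 144 against 288, 265 and 306 (0.87 ± 0.10). Both rose to 186% and 182% of control, and every U3 ASO library was above every GFP ASO library.

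SNHG8 had 42.1, 48.0 and 50.6 in GFP ASO and 91.8, 87.0 and 103 in U3 ASO (log2 fold change 0.99 ± 0.13). SNHG1, with 8 C/D box snoRNAs inside it, had 52.8, 43.0 and 53.1 against 108, 88.4 and 96.2 (0.97 ± 0.13). SNHG17 had 43.5, 61.5 and 64.4 against 82.1, 93.3 and 113 (0.77 ± 0.16). SNHG11, host of the H/ACA box snoRNAs SNORA71E and SNORA60, had 2.64, 6.29 and 3.40 against 11.3, 8.08 and 12 (1.31 ± 0.37, adjusted p = 0.0098). The groups did not overlap in any of these 4 genes, as in 4152 of all 8359 genes tested. SNHG11 rested on a mean of 52.7 scaled reads.

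The 3 genes that fell host C/D box snoRNAs alone, as do 7 of the 13 genes tested, of which 2 rose (ZFAS1 and SNHG1) and 2 were not called. SNHG14 went from 727, 659 and 695 to 512, 552 and 524 (log2 fold change -0.39 ± 0.06), SNHG6, host of SNORD87, from 221, 259 and 252 to 148, 154 and 206 (-0.54 ± 0.11), and SNHG29 from 627, 634 and 583 to 509, 453 and 525 (-0.31 ± 0.07). Their U3 ASO libraries all lay below the GFP ASO libraries. The reads that skip the SNHG29 alternative exon enter its level once for each of its 3 forms. The SNHG29 level and the inclusion change are therefore linked. With only the event of most reads, where no junction is counted for several forms, SNHG29 was still called. How much of the fall comes from the link was not tested. The tables assign to SNHG14 6 events that lie before the start of the annotated gene (chr15:24978583-25420336), in exons of SNRPN and SNURF, and 1 inside it in an exon of another gene. Together these gave 64% of the reads behind the SNHG14 level, so most of that level is not reads particular to SNHG14; without them, the change was -0.4464 (adjusted p = 0.000413). The other 4 genes were not called: SNHG12 (0.27 ± 0.16), host of 1 C/D and 3 H/ACA box snoRNAs, SNHG3 (-0.23 ± 0.24), host of SNORA73A and SNORA73B, SNHG5 (0.05 ± 0.13), host of SNORD50A and SNORD50B, and SNHG16 (0.00 ± 0.15).

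**Figure D4:**
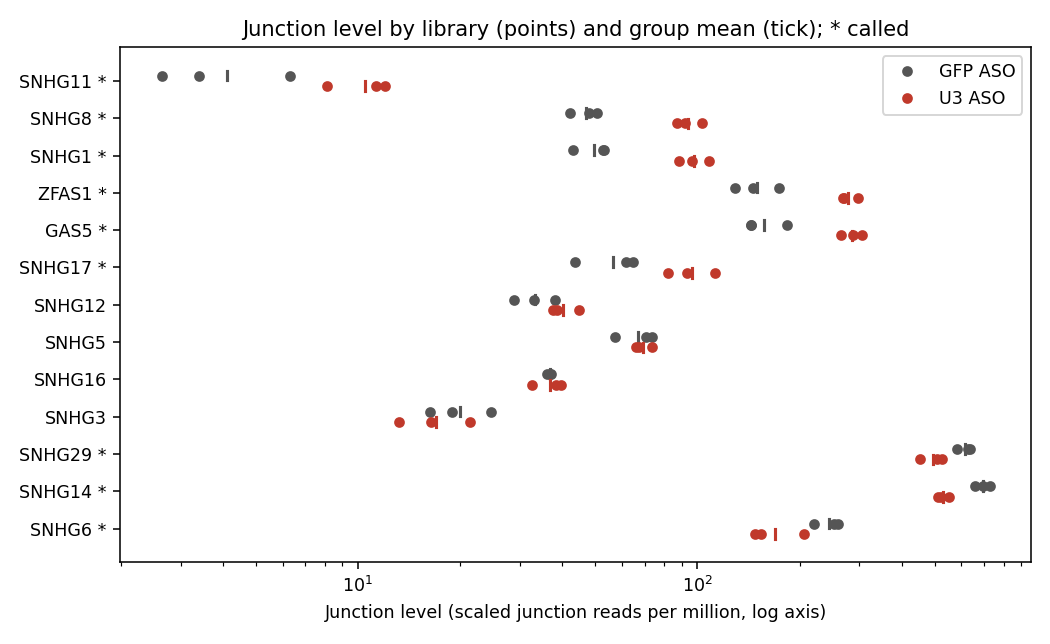
Junction level (scaled junction reads per 1000000, log axis) of the 13 tested host genes in each GFP ASO and U3 ASO library, with a tick at the group mean and a star at called genes. For ZFAS1, GAS5, SNHG8, SNHG1, SNHG17 and SNHG11 the U3 ASO points lie above, and for SNHG14, SNHG6 and SNHG29 below, all GFP ASO points.

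These counts stood against a table in which much changed: 46.6% of the 8359 genes tested were called, 36% higher and 10.6% lower. The median gene was 0.26 higher on the log2 scale in U3 ASO, and 77.3% of the calls were upward; with median-of-ratios scaling the median shift was 0.03 and the upward share 48.6%. The same 9 host genes were called in the same directions under that scaling. Levels did not overlap between the groups in 9 of the 13 host genes, against 4152 of the 8359 genes. Relative to the median gene, the changes were 0.64 in ZFAS1, 0.61 in GAS5, 0.73 in SNHG8, 0.71 in SNHG1, 0.51 in SNHG17, 1.05 in SNHG11, -0.65 in SNHG14, -0.80 in SNHG6 and -0.57 in SNHG29. The median log2 fold change of the 13 host genes was 0.27. Protein-coding snoRNA hosts, such as the ribosomal protein and NOP56 genes, had a median of -0.32 over 24 genes, with 4 called higher and 16 lower; of 7 hepatocyte markers with a level, ALB, AFP, APOA1, APOB and TF were called lower, with TF at 31.6% and APOA1 at 57.9% of GFP ASO, while SERPINA1 (85.9%, adjusted p = 0.451) and TTR (111%, adjusted p = 0.121) were not called. Their part in the host gene values was not tested.

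FUBP1 depletion changed the level of 1 of 11 host genes tested, against 11.2% of all 6082 genes. SNHG14 had levels of 772, 594 and 589 in siCtrl2 and of 468, 518 and 502 in siFUBP1, a log2 fold change of -0.38 ± 0.11 (adjusted p = 0.0491). The first siCtrl2 library stood above the other 5, and without it the change was -0.2547 (adjusted p = 0.221). Without the first siFUBP1 library it was -0.3414 (adjusted p = 0.144). With only the event of most reads it was -0.08918 (adjusted p = 0.773), and that event lies before the annotated start of SNHG14, in an exon of SNRPN and SNURF. The 2 events assigned to SNHG14 that lie before its annotated start, in exons of SNRPN and SNURF, gave 51.4% of its reads, and without them the change was -0.6943 (adjusted p = 0.00519). SNHG29 had 1030, 831 and 929 against 1010, 952 and 777. ZFAS1 had 250, 213 and 229 against 172, 188 and 218 (log2 fold change -0.27 ± 0.13, adjusted p = 0.267). The median over the 11 genes was -0.20, beside -0.04 over all genes and -0.16 over 20 protein-coding hosts, of which 1 was higher and 4 lower.

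FBL depletion changed the level of 0 of 11 host genes tested in limma, against 2.65% of all 2902 genes. At an unadjusted p under 0.05 there were 3 host genes and 378 genes in all. SNHG29 had levels of 884 and 841 in siCtrl input and of 577 and 600 in siFBL input, a log2 fold change of -0.55 ± 0.17 (adjusted p = 0.145). SNHG14 had 31.9 and 99.7 against 3.84 and 7.29 (-3.29 ± 1.17, adjusted p = 0.221), on a mean of 20.7 scaled reads, and SNHG5 had 95.8 and 164 against 56.8 and 49.5 (-1.23 ± 0.45, adjusted p = 0.245). The groups did not overlap in these 3 genes, nor in SNHG16, which was higher in siFBL input (30.8 and 54.3 against 79.7 and 59.1). These 4 of 11 host genes stood beside 1284 of all 2902 genes without overlap. With a minimum of 50 scaled reads, or with none, SNHG29 was called. The median over the 11 genes was -0.42, beside -0.17 over all genes and -0.38 over 13 protein-coding hosts, of which 0 were higher and 3 lower.

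The FUBP1 RIP addresses which RNAs FUBP1 holds, and whether this differs without FBL. Enrichment is the deposited log2 ratio of RIP over input from 2 libraries each, with its standard error; no values per library are listed, so no test was made. Of the 32 host genes, 21 reached a mean count of 50 in both conditions; the other 11 were SNHG9, SNHG15, SNHG18, SNHG19, SNHG22, SNHG25, SNHG26, SNHG27, SNHG28, SNHG31 and SNHG32. The host genes spread over the range of all genes: their median in siCtrl was -0.29 (range -2.42 to 2.97), beside 0.15 over 11581 genes, with quartiles of -1.72 and 1.65.

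SNHG14 was the most enriched host RNA, at 2.97 ± 0.06 in siCtrl and 2.76 ± 0.27 in siFBL, above 94.5% of all genes in siCtrl. SNHG21 followed at 1.76 ± 0.69 and 0.84 ± 0.68 on a mean count of about 50 (50.1 in siCtrl), then SNHG1 at 1.40 ± 0.19 and 1.44 ± 0.25, SNHG4, host of SNORA74A, at 1.31 ± 0.59 and 1.11 ± 0.55, and SNHG16 at 1.28 ± 0.10 and 0.68 ± 0.10. These 5 were above 1 in siCtrl, against 36.5% of all genes; in siFBL 4 of the 21 were, against 33.9%. The neighbours SNHG21, SNHG1, SNHG4 and SNHG16 did not differ beyond their standard errors in siCtrl.

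At the other end stood SNHG11 (-2.42 ± 0.56 in siCtrl and -2.22 ± 0.67 in siFBL), SNHG29 (-2.03 ± 0.13 and -2.10 ± 0.15), SNHG7, host of SNORA17A and SNORA17B (-1.75 ± 0.23 and -2.36 ± 0.21), and ZFAS1 (-1.38 ± 0.19 and -1.66 ± 0.21). With SNHG20 and DANCR, 6 host genes were below -1 in siCtrl, against 34.3% of all genes. SNHG29 and ZFAS1, whose exons were included more after U3 depletion, were thus among the host RNAs least represented in the FUBP1 RIP relative to input. The values are per gene and do not separate spliced from unspliced RNA.

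**Figure D5:**
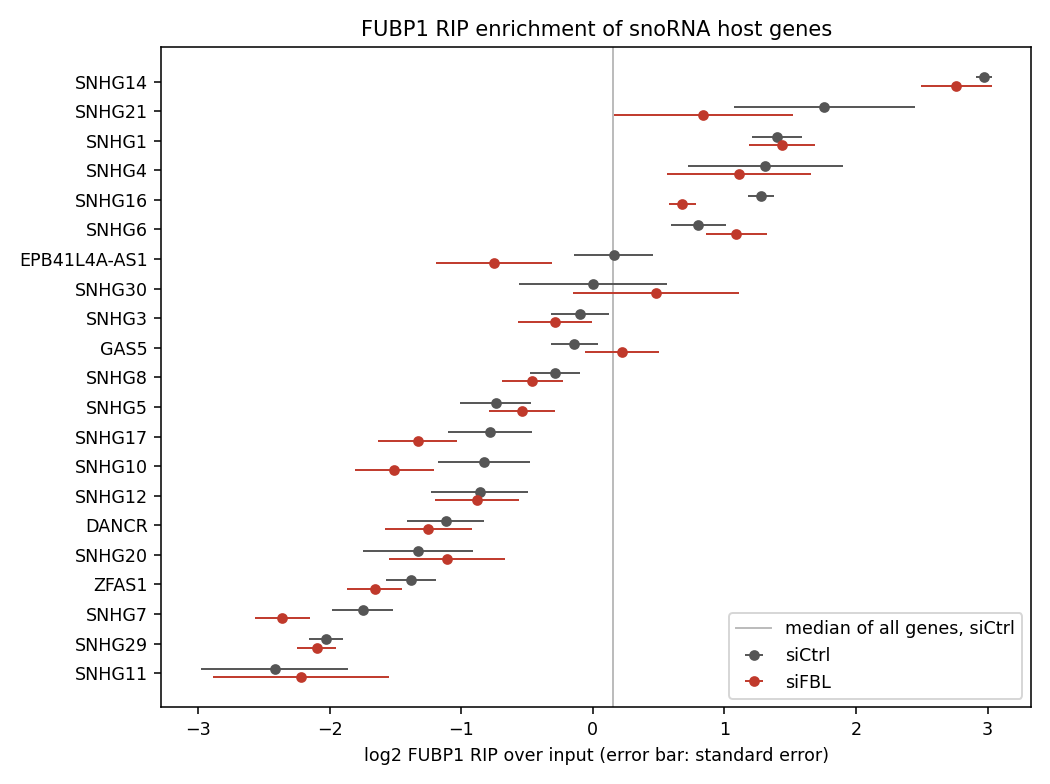
Log2 enrichment of FUBP1 RIP over input for the 21 host genes that passed the count minimum, in siCtrl and siFBL, with standard errors as bars and a line at the median of all genes in siCtrl. SNHG14 stands highest in both conditions, SNHG11 lowest in siCtrl and SNHG7 lowest in siFBL, and most pairs overlap within their bars.

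Enrichment was higher in siFBL than in siCtrl in 7 of the 21 host genes and lower in the others. The median difference over the 21 host genes was -0.18 (range -0.93 to 0.48), beside 0.00 over all genes, whose quartiles were -0.26 and 0.29. None of the 21 differed by more than 1, against 4.71% of all genes. SNHG16 was the only host gene whose difference exceeded 2 standard errors (-0.60 ± 0.14), and SNHG7 lay just within them (-0.61 ± 0.31). The share of all genes past 2 standard errors was not counted, so it is not known whether this is more or less than usual. The widest falls were in SNHG21 (-0.93 ± 0.96), EPB41L4A-AS1, host of SNORA13 (-0.91 ± 0.53), and SNHG10 (-0.67 ± 0.46), and the widest rises in SNHG30, host of SNORD7 (0.48 ± 0.84), GAS5 (0.36 ± 0.33) and SNHG6 (0.29 ± 0.31); each lay within 2 standard errors of 0. FUBP1 itself had a mean count of 14300 in siCtrl and 8690 in siFBL in this table, on scales set separately, and its part in the differences was not tested.

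By the snoRNAs annotated inside them, the 8 hosts of C/D box snoRNAs alone had a median enrichment of 0.40 in siCtrl (range -2.03 to 2.97) and the 8 hosts of H/ACA box snoRNAs alone -0.54 (range -2.42 to 1.31). SNHG14 lay above every H/ACA box host beyond its standard error. The differences between siFBL and siCtrl had medians of -0.02 and -0.20. The 30 protein-coding hosts that passed the count minimum had a median of -1.19 in siCtrl and -1.40 in siFBL, and of 0.05 for the difference. In siCtrl the median of the noncoding hosts thus lay between that of the protein-coding hosts and that of all genes.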

How the data were processed

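Polyadenylated RNA, input RNA and FUBP1 RIP RNA of HepG2 cells were sequenced in 20 libraries. The authors trimmed reads with Cutadapt, aligned them to hg38 with HISAT2 and listed skipped exon events with rMATS. The deposited tables give, per event and library, whole junction reads, which are counts joined in a list, so no tool for count tables was run on them. For RIP over input the authors used DESeq2 separately in siCtrl and siFBL, and the deposited log2 fold change, its standard error and a mean count (treated as a score, since its scaling differs between conditions and it takes in 2 libraries of neither arm) were used. The counter is named differently in the methods and the submitters' processing notes, and versions and the annotation release were not given in the sources used here. The authors' own p-values, FDR and inclusion differences were not used, nor were 6 columns of per-library inclusion levels.

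Inclusion was (I/length of the inclusion form) over the same plus (S/length of the skipping form). Events with a mean of at least 10 reads per library were tested by a quasi-binomial model with the dispersion moderated across events (limma 3.58.1, R 4.3.3), and levels of genes with at least 10 scaled reads with limma on log2(level per 1000000 + 0.5); fold changes are on that scale. The event dispersion was drawn to a trend over all events of a table. The p-value of an event therefore does not measure the spread between its own libraries alone. P-values were adjusted by Benjamini-Hochberg over all events or genes of a table, and called under 0.1. Both scripts were run on simulated reads. For events, these had a lower dispersion than was fitted here, with large changes in well-read events of intermediate inclusion only. They do not show how the test performs on exons near full inclusion. RIP genes needed a mean count of 50 in both conditions. Sequences and exons came from hg38 and GENCODE 44, with pysam 0.24.0, and RefSeq (GRCh38.p14) gave the snoRNAs inside each gene. The exons of all 3 SNHG29 forms are spliced at GT-AG introns.

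The host genes, the gene lists and the form of the event test were chosen with earlier results of these data known. Named were all called events and genes, the 8 events of lowest p per table (5 for FBL depletion), the 4 highest and 4 lowest RIP enrichments and the 3 widest rises and falls; other values were chosen after they were seen. Replicate libraries differed by more than counting noise. Tables of different comparisons were scaled separately. Reads carry no molecular identifiers, so depth limits precision beyond counting error. Alternatives were another test, other read minimums, another scaling and pseudocount, only the event of most reads, and leaving out each library; 1 form of limma and the removal of exons that are annotated in another gene were added after seeing the data.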

Additional observations from a re-analysis of the deposited data

How the results depend on the processing

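No paired analysis was possible because the lists of junction reads carry no replicate number and the RIP values are given per condition. Under limma on the log2 odds of inclusion, in each of its 3 forms, the host gene events called after U3 depletion went from 5 to 0 and all events called from 56 to 0, while 1927 to 1995 events, 3 of them in host genes, had an unadjusted p under 0.05; the cause was not tested. Leaving out 1 library left 3 to 4 host gene events and 30 to 48 events in all. For FUBP1 depletion all events called went from 25 to 2, 6 or 8 under limma and to 12 to 20 without 1 library, with 0 host gene events throughout. Host gene levels called after FUBP1 depletion went from 1 to 0 with only the event of most reads and stood at 0 to 1 without 1 library (all genes 420 to 535, against 684). After FBL depletion they went from 0 to 1 (SNHG29) with a minimum of 50 scaled reads and with none, where fewer or more genes were tested (all genes 123 and 120, against 77), and stood at 0 to 1 without 1 library (GAS5, without siFBL input 2; all genes 8 to 82); with only the event of most reads 51 genes were called, and with median-of-ratios scaling 35 of 57 calls were upward, against 20 of 77. In the U3 comparison the same 9 host genes were called under every level alternative. The median RIP enrichment in siCtrl was -0.7421 with a minimum mean count of 200. The inclusion change of the SNHG6 exon chr8:66922324-66922385 ranged from -0.8726 without siFBL input 1 to 0.1274 without siFBL input 2. The FBL comparison had the fewest reads and 2 libraries a group; what limits its calls was not tested.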
